A study of Mus musculus with 6 samples.

Results

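Genes of the lysosome and of autophagy were examined in the cortex of mouse embryos with a conditional knockout of the histone deacetylase genes Hdac1 and Hdac2. The set holds 49 genes chosen by symbol: proteases, glycosidases and sulfatases, lipid-degrading enzymes, membrane proteins, subunits of the proton pump, autophagy factors and the transcription factors Tfeb and Tfe3. Of these, 30 had a row among the 12041 symbols of the deposited table, and 26 reached the filter of 1 FPKM in 3 of the 6 libraries (FPKM, fragments per unit of transcript length and of sequencing depth). The other 19 (Ctsa, Ctsd, Ctsf, Lamp1, Cd63, Gaa, Gusb, Galns, Idua, Naglu, Lipa, Tfeb, Tfe3, Atp6v1h, Map1lc3a, Ulk1, Atg5, Atg7 and Uvrag) were not analysed here. RNA came from cortex at embryonic day 12.5 in C57BL/6 mice. HM-5, HM-13 and HM-16 are the 3 libraries of the conditional double knockout of Hdac1 and Hdac2 (cKO). HC-8, HC-10 and HC-1 are the 3 wild-type libraries (WT). The sources used here do not give the promoter that drives the recombinase, the deleted exons or any floxed allele in the WT embryos. Nothing in the labels ties each library to an embryo of its own. P-values therefore measure only how far these libraries scatter, which could be technical.

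Lysosomes are acidic organelles in which hydrolases break down proteins, glycans, lipids and nucleic acids. A proton pump, the V-ATPase, acidifies them, and membrane proteins protect the limiting membrane and let ions and breakdown products out. Autophagy wraps cytoplasm in a double membrane that carries lipidated proteins of the LC3 and GABARAP family, and delivers it to the lysosome. The bHLH factors TFEB and TFE3 bind an E-box in the promoters of many of these genes, and patients who lack single lysosomal enzymes develop storage diseases that often affect the brain.

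Both targeted transcripts were lower in the libraries labelled cKO. Hdac1 had 45.5, 61.0 and 47.4 FPKM in HM-5, HM-13 and HM-16, against 212, 197 and 193 FPKM in HC-1, HC-8 and HC-10. Hdac2 had 37.6, 61.7 and 47.5 FPKM in cKO, against 134, 216 and 272 FPKM in WT. HM-13 stood apart: the ribosomal RNA row Rn45s took 29.7% of its reads and 0.506% to 2.48% of those of the other 5 libraries. The dorsal telencephalic factor Emx1, a marker of the labelled tissue, had 147 to 179 FPKM in cKO and 166 to 201 FPKM in WT. Other tissue was present too: the mesenchymal gene Col3a1 had 125 to 205 FPKM in cKO and 100 to 221 FPKM in WT. Emx1 alone therefore does not show how pure the cortex was. Because the tissue was sequenced in bulk, more cells of a type and more RNA per cell cannot be told apart.

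Of the 26 tested genes, 9 rose in the cKO libraries and 0 fell. The genes that rose were the cathepsins Ctsb and Ctsl, the glycosidases Neu1, Man2b1 and Manba, the progranulin gene Grn, the calcium channel gene Mcoln1, the V-ATPase subunit gene Atp6v0d1 and the autophagy gene Wipi1. Among all 9359 genes tested with limma at an adjusted p under 0.05, 9.62% rose and 8.39% fell (18% in all). The 17 other members did not pass. At an unadjusted p under 0.05 the counts were 11 higher and 0 lower, against 1623 higher and 1586 lower of all 9359 genes. Voom on the recovered reads gave 9 higher and 0 lower, against 1044 higher and 867 lower of all genes. The median log2 fold change of the 26 was 0.09, against -0.01 over all genes tested. In 11 of the 26 the 3 cKO values all lay above the 3 WT values, and in 0 all below, where 19.5% and 19.6% of all genes did so. Each of the 9 genes that rose was at or above 1 FPKM in all 6 libraries, so none passed the filter through the cKO group alone. With scaling by library totals, in which Rn45s is counted, 2 of the 9 calls were kept, those of Grn and Manba. When HM-13 was left out, the same 9 genes were called. The count was 5 without HM-16, 6 without HM-5 or without HC-10, 7 without HC-8 and 8 without HC-1.

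**Figure D1:**
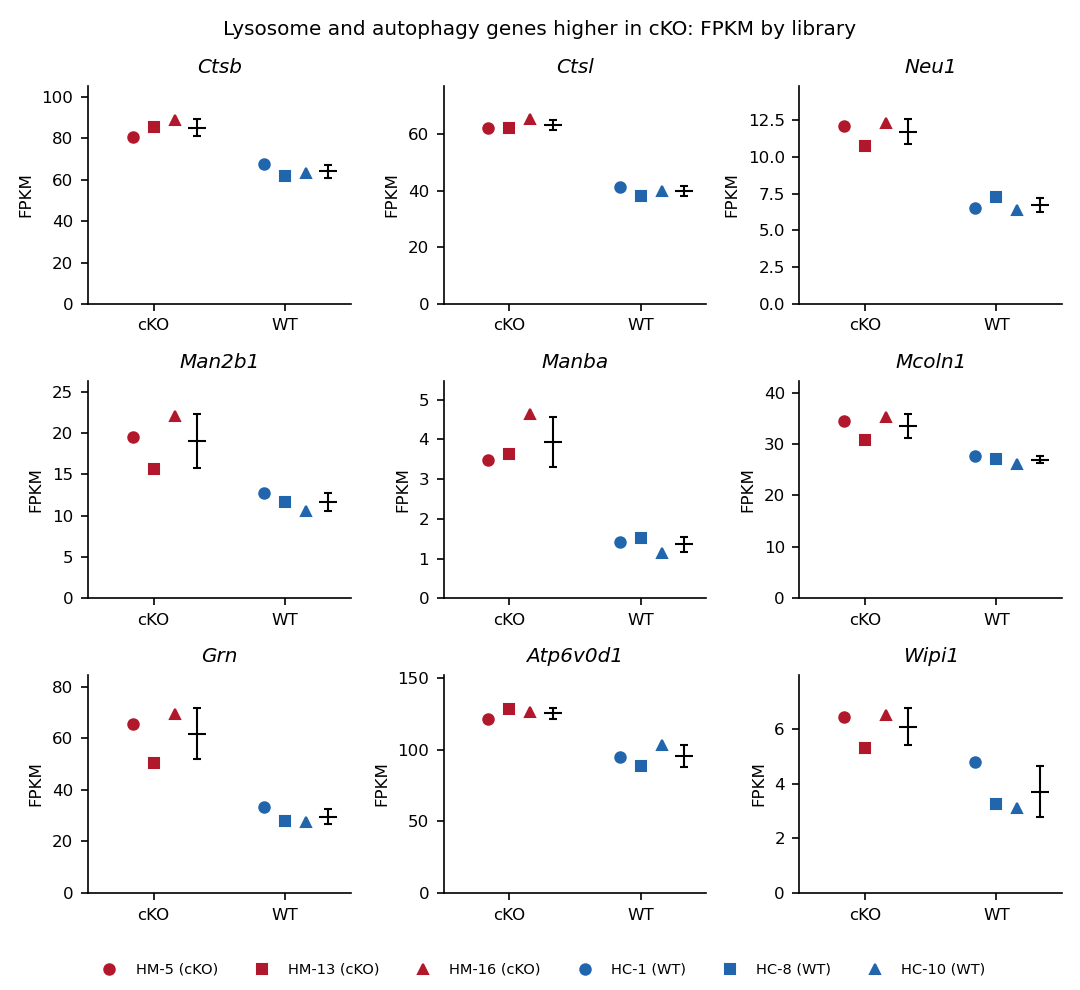
FPKM of the 9 lysosome and autophagy genes that rose, in each cKO library (left) and each WT library (right); black bars show mean ± SD (n = 3 each) and every axis starts at 0. In every panel the 3 cKO points lie above the 3 WT points, from 3.49 FPKM or more against 1.52 FPKM or less for Manba to 121 FPKM or more against 103 FPKM or less for Atp6v0d1.

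The promoters of these genes were read for the E-box CACGTG, the core of the element that TFEB binds; the motif reads the same on both strands. Windows of 250 bases before to 50 bases after the start site came from RefSeq (GRCm38.p6), in which 26 of the 30 members with a row had an entry. Of the 8 risen genes with an entry, 3 held the motif, whereas 1 of the 14 members that were tested and not called held it. Of the 4 members below the filter, 3 held it, so that 7 of the 26 members with an entry (26.9%) did. Over all tested genes with an entry the share was 11.2%, and over all 27025 genes of the promoter table it was 8.09%. A match describes the letters and is not evidence of binding. The stretches around the motif are shown for the 3 risen genes that hold it, 5′ to 3′ on the gene's strand, with the E-box in capitals.
Ctsl, chr13:64370691-64370770, minus strand: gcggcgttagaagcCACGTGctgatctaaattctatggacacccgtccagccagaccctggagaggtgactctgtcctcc
Mcoln1, chr8:3500388-3500518, plus strand: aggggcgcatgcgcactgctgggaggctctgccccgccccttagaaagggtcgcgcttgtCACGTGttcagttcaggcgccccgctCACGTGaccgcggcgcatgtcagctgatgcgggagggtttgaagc
Atp6v0d1, chr8:105566062-105566127, minus strand: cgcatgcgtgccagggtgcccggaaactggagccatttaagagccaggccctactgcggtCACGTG
Mcoln1 held 2 copies, which begin 71 and 45 bases before the start site. The copy in Atp6v0d1 begins 3 bases before the start site and spans it, and that in Ctsl begins 236 bases before the start site of the table. The gene boundary in GENCODE lies upstream of the RefSeq start site for Ctsl and Mcoln1, beyond the printed stretch in Ctsl and between the 2 copies in Mcoln1. The windows of Neu1, Man2b1, Manba, Grn and Wipi1 did not hold these letters, and Ctsb had no entry.

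Of 4 tested protease genes, 2 rose, both cysteine cathepsins, beside 9.62% of all genes tested. Each role holds few tested genes, so nothing about a role is read from its count, here or below. Ctsl (ENSMUST00000021933; chromosome 13, 64359337 to 64370890, GRCm38) encodes cathepsin L, a broad endopeptidase of the lysosome. It had 62.2, 62.1 and 65.3 FPKM in HM-5, HM-13 and HM-16, against 41.5, 38.0 and 40.1 FPKM in HC-1, HC-8 and HC-10. The groups were far apart relative to their spread, with means of 63.2 ± 1.81 FPKM in cKO and 39.8 ± 1.76 FPKM in WT (SD, n = 3 each; 1.59-fold; log2 fold change 0.65, SE 0.06, adjusted p = 0.00142). Ctsb (ENSMUST00000006235; chromosome 14, 63122462 to 63145923) encodes cathepsin B, which also trims peptides from the C terminus. It had 80.8, 85.6 and 89.0 FPKM in cKO and 67.5, 61.6 and 63.2 FPKM in WT (1.33-fold; log2 fold change 0.40, SE 0.06, adjusted p = 0.00759). Counts behind these values were high, at 3194 to 4452 reads per library for Ctsb and 1498 to 2468 for Ctsl. The carboxypeptidase gene Ctsz, of similar level, had 74.6, 69.7 and 73.9 FPKM in cKO and 70.2, 63.5 and 56.5 FPKM in WT; the groups overlapped and the adjusted p was 0.145. The tripeptidyl peptidase gene Tpp1 stood at 1.38 to 1.52 FPKM in cKO and 1.09 to 1.59 FPKM in WT (log2 fold change 0.05, 95% interval -0.23 to 0.33). Neither Ctsb nor Ctsl lost its call when any single library was omitted.

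Of 6 tested glycosidase and sulfatase genes, 3 rose, beside 9.62% of all genes tested. All 3 encode enzymes that trim sugars from glycoproteins. Manba (chromosome 3, 135485611 to 135571404), the beta-mannosidase gene that acts at the last step of N-glycan breakdown, had 3.49, 3.63 and 4.65 FPKM in cKO against 1.43, 1.52 and 1.15 FPKM in WT. This was the largest ratio of the 26 tested genes: 3.92 ± 0.63 FPKM in cKO and 1.36 ± 0.191 FPKM in WT (SD, n = 3 each; 2.88-fold; log2 fold change 1.05, SE 0.13, adjusted p = 0.00397), over 45 to 180 reads per library. Neu1 (chromosome 17, 34931253 to 34935953), the sialidase that removes terminal sialic acid, had 12.1, 10.7 and 12.3 FPKM in cKO and 6.54, 7.26 and 6.41 FPKM in WT (1.74-fold; log2 fold change 0.72, SE 0.10, adjusted p = 0.00475). Man2b1 (chromosome 8, 85083270 to 85098282), the lysosomal alpha-mannosidase gene, had 19.5, 15.6 and 22.1 FPKM in cKO and 12.7, 11.7 and 10.5 FPKM in WT (1.64-fold; log2 fold change 0.66, SE 0.13, adjusted p = 0.0167). The cKO values of Man2b1 were spread more widely than those of Neu1, with HM-13 lowest, and its call was lost without HM-5, HM-16 or HC-10 (highest adjusted p = 0.0720). Omitting any single library left Neu1 and Manba called.

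The remaining 3 tested genes of this role had overlapping groups. Hexa, a hexosaminidase subunit gene of ganglioside breakdown, had 32.2, 26.1 and 33.4 FPKM in cKO and 35.1, 31.8 and 28.5 FPKM in WT (log2 fold change -0.06, 95% interval -0.32 to 0.21). The alpha-galactosidase gene Gla averaged 7.08 ± 0.738 FPKM in cKO and 7.88 ± 0.63 FPKM in WT (n = 3 each; 95% interval of the log2 fold change -0.40 to 0.12). Ids, the iduronate sulfatase gene of glycosaminoglycan breakdown, averaged 22.9 ± 1.03 FPKM in cKO and 22.4 ± 1.74 FPKM in WT (95% interval -0.16 to 0.22). The upper ends of the intervals of Hexa and Gla lie below the lower ends of those of Neu1 (0.49) and Manba (0.74).

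None of the 4 tested genes of lipid breakdown passed (0 higher and 0 lower with limma and with voom, and 0 at an unadjusted p under 0.05). With limma, 9.62% of all genes tested rose and 8.39% fell, so a count of 0 among 4 genes says little about this role. Asah1, the acid ceramidase gene, had 12.9, 13.8 and 12.8 FPKM in cKO and 13.5, 13.9 and 12.8 FPKM in WT, so that the ranges nearly coincided (log2 fold change -0.02, 95% interval -0.21 to 0.16). The acid sphingomyelinase gene Smpd1 varied more among libraries, at 7.85, 10.5 and 8.22 FPKM in cKO and 8.55, 6.08 and 11.1 FPKM in WT, and its interval was correspondingly wide (-0.41 to 0.54). Ppt1, the palmitoyl-protein thioesterase gene, averaged 2.53 ± 0.222 FPKM in cKO and 2.76 ± 0.529 FPKM in WT, over 28 to 43 reads per library. Psap, which encodes the precursor of the saposin activators of sphingolipid hydrolysis, averaged 1.17 ± 0.215 FPKM in cKO and 1.23 ± 0.251 FPKM in WT, over 22 to 40 reads per library (n = 3 each).

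Among the membrane and other lysosomal proteins, 2 of 3 tested genes rose, beside 9.62% of all genes tested. Grn (ENSMUST00000049460; chromosome 11, 102430315 to 102437048) encodes progranulin, a secreted protein that is taken to the lysosome and cleaved there into granulins, and whose loss causes a neuronal storage disease. It had 65.5, 50.6 and 69.3 FPKM in HM-5, HM-13 and HM-16, against 33.2, 28.1 and 27.7 FPKM in HC-1, HC-8 and HC-10. The lowest cKO library was thus above the highest WT library by more than the whole WT range, and the means were 61.8 ± 9.89 FPKM in cKO and 29.7 ± 3.07 FPKM in WT (SD, n = 3 each; 2.08-fold; log2 fold change 1.03, SE 0.13, adjusted p = 0.00375). Mcoln1 (chromosome 8, 3500457 to 3515232), the calcium release channel TRPML1 whose promoter stretch is shown above, had 34.5, 30.8 and 35.2 FPKM in cKO and 27.7, 27.1 and 26.2 FPKM in WT. Its difference was the smallest of the 9 (1.24-fold; log2 fold change 0.30, SE 0.07, adjusted p = 0.0300), and the call was lost on omission of any library but HM-13 (5 of 6 fits; highest adjusted p = 0.124). Lamp2, a heavily glycosylated protein of the limiting membrane, had 29.5, 28.6 and 31.6 FPKM in cKO and 30.8, 26.3 and 25.8 FPKM in WT (log2 fold change 0.11, 95% interval -0.09 to 0.31). Grn stayed called on omission of any single library.

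**Figure D2:**
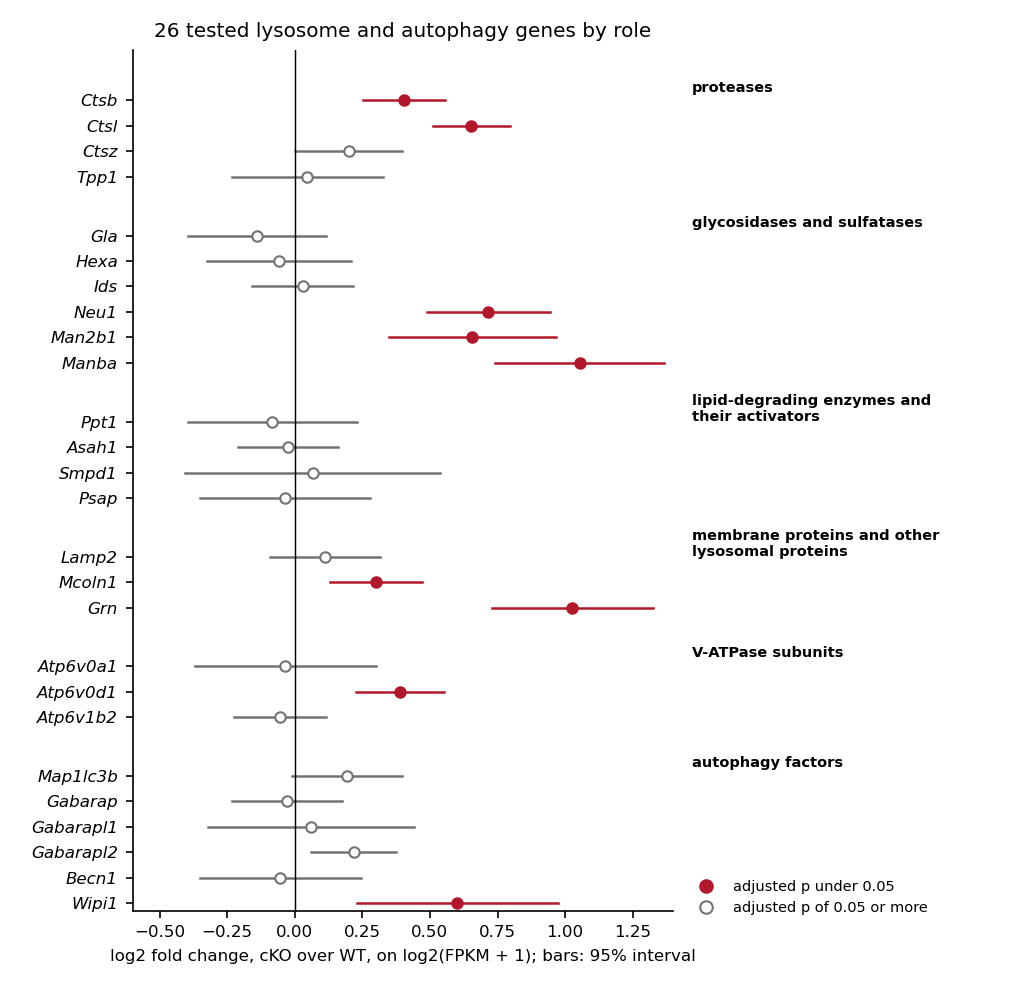
Log2 fold change of cKO over WT on the log2(FPKM + 1) scale for the 26 tested genes, ordered by role, with 95% intervals from limma as bars; filled points have an adjusted p under 0.05. The 9 filled points lie between 0.30 (Mcoln1) and 1.05 (Manba), and the 17 open ones between -0.14 (Gla) and 0.22 (Gabarapl2).

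Of 3 tested V-ATPase subunit genes, 1 rose, beside 9.62% of all genes tested. With 3 genes, nothing about the pump is read from this count. Atp6v0d1 (chromosome 8, 105524465 to 105566047) encodes the d subunit, which links the membrane sector of the pump to its central stalk. It had 121, 128 and 126 FPKM in cKO and 94.7, 88.5 and 103 FPKM in WT, with no overlap (1.31-fold; log2 fold change 0.39, SE 0.07, adjusted p = 0.0114; adjusted p = 0.0530 without HM-16). Atp6v1b2, the B subunit of the ATP-hydrolysing sector, had 51.6, 55.7 and 54.2 FPKM in cKO and 57.1, 51.4 and 59.7 FPKM in WT. Its log2 fold change was -0.05 with a 95% interval of -0.22 to 0.12, whose upper end lies below the lower end of the interval of Atp6v0d1 (0.23). Atp6v0a1, the large membrane subunit that carries protons through the pump, averaged 1.71 ± 0.281 FPKM in cKO and 1.79 ± 0.401 FPKM in WT (n = 3 each).

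Of 6 tested autophagy genes, 1 rose, beside 9.62% of all genes tested. With 6 genes, nothing about autophagy is read from this count. Wipi1 (ENSMUST00000103060; chromosome 11, 109573331 to 109611967), which binds phosphatidylinositol 3-phosphate on forming autophagosomes, had 6.42, 5.30 and 6.52 FPKM in cKO and 4.80, 3.24 and 3.10 FPKM in WT. The means were 6.08 ± 0.678 FPKM in cKO and 3.71 ± 0.941 FPKM in WT (SD, n = 3 each; 1.64-fold; log2 fold change 0.60, SE 0.16, adjusted p = 0.0394), and the call was lost without HM-5, HM-16, HC-8 or HC-10 (highest adjusted p = 0.137). A second Wipi1 row (ENSMUST00000047186) of similar depth had 6.20, 3.89 and 5.96 FPKM in cKO and 3.26, 2.84 and 1.49 FPKM in WT, also without overlap.

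Of the LC3 and GABARAP genes, whose products are joined to lipid on the autophagosome membrane, Gabarap, Map1lc3b and Gabarapl2 had the highest FPKM of the set. Gabarap had 328, 384 and 349 FPKM in cKO and 378, 326 and 379 FPKM in WT, with overlapping groups and a 95% interval of the log2 fold change of -0.23 to 0.17. Map1lc3b had 196, 229 and 205 FPKM in cKO and 193, 165 and 193 FPKM in WT, and Gabarapl2 had 141, 160 and 154 FPKM in cKO and 134, 124 and 133 FPKM in WT. In both genes the cKO values lay just above the WT values. The test did not pass for Map1lc3b (log2 fold change 0.19, adjusted p = 0.163) or for Gabarapl2 (0.22, adjusted p = 0.0635), but it passed for both after quantile normalization and with library totals that leave out Rn45s (lowest adjusted p = 0.0151 and 0.00774). Gabarapl1 rested on 12 to 23 reads per library (log2 fold change 0.06, adjusted p = 0.823). The beclin gene Becn1, part of the lipid kinase complex that starts autophagosomes, averaged 2.48 ± 0.259 FPKM in cKO and 2.62 ± 0.417 FPKM in WT (n = 3 each; 95% interval -0.35 to 0.24).

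The 4 members below the filter rested on few reads. Sqstm1, the p62 receptor that links cargo to LC3, had 0.436, 0.572 and 0.607 FPKM in cKO and 0.219, 0.193 and 0.185 FPKM in WT, from 10, 10 and 13 reads in cKO and 5, 5 and 4 reads in WT. Without the filter it was called higher (adjusted p = 0.0255). The catalytic V-ATPase subunit gene Atp6v1a (0.367, 0.408 and 0.272 FPKM in cKO; 0.17, 0.251 and 0.0899 FPKM in WT) and the lysosomal membrane protein gene Cln3 (0.577 to 0.835 FPKM in cKO; 0.477 to 0.571 FPKM in WT) did not overlap between groups either, with at most 13 reads in a library. Neither passed without the filter (adjusted p = 0.147 and 0.395). The beta-galactosidase gene Glb1 had 0.408 to 0.566 FPKM in cKO and 0.165 to 0.91 FPKM in WT.

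The level of a row differed with the number of transcripts of its gene. Among 9540 symbols found with a RefSeq mRNA, the median FPKM was 10.4 for genes with 1 mRNA, 2.27 for those with 2 and 1.61 for those with 4 or more. The same held among the members: the 22 with 1 mRNA had a median of 19.0 FPKM, and the 8 with several, such as Psap, Sqstm1, Cln3, Atp6v1a and Becn1, had a median of 1.48 FPKM. Single members departed from this. Map1lc3b with 2 mRNAs averaged 197 FPKM and Lamp2 with 3 averaged 28.8 FPKM. Glb1, Gabarapl1, Tpp1 and Ppt1, with 1 mRNA each, averaged from 0.482 (Glb1) to 2.65 FPKM (Ppt1). How reads that match several transcripts were counted is not given in the sources used here, so the order of levels between genes is not read further. All 9 risen genes have 1 RefSeq mRNA, as do 12 of the 17 members that were tested and not called.

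Among the cKO libraries, HM-16 had the highest value in 8 of the 9 risen genes and HM-13 the lowest in 6. Residual Hdac1 and Hdac2 and the Rn45s share were also greatest in HM-13 among cKO, and their part in this order was not tested. In WT, HC-1 was highest in 6 of the 9 genes and HC-10 lowest in 6.

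A wider list of 124 lysosome and autophagy genes outside the set was read in the same fit. Of its 81 tested genes, 12 (14.8%) rose and 5 (6.17%) fell, against 9.62% and 8.39% of all genes, and the median log2 fold change was 0.04. The 12 include Atg2a, which reached the filter through the cKO libraries alone. With library totals as scaling, 1 gene (Gm2a) rose and 3 fell. The count of 12 was 4 without HM-5 or without HM-16, 7 without HC-1 and 6 without HC-10, and the count of 5 was 2 without HM-5 and 3 without HM-16, HC-1 or HC-10. Of the 21 tested lysosomal enzymes, 5 rose and 1 fell. Gm2a, an activator of ganglioside breakdown, had 26.9, 26.8 and 24.4 FPKM in cKO and 8.42, 6.77 and 8.95 FPKM in WT (3.23-fold; log2 fold change 1.58, SE 0.11, adjusted p = 0.000622). The nuclease gene Dnase2a (1.81-fold, adjusted p = 0.00299) and the fucosidase gene Fuca1 (36.9, 37.0 and 37.0 FPKM in cKO and 24.8, 22.1 and 24.3 FPKM in WT; adjusted p = 0.00242) also rose, as did Sgsh, a sulfatase of heparan sulfate breakdown named after its value was seen (1.48-fold, adjusted p = 0.0426). The call of Sgsh was lost in 5 of 6 fits with single libraries omitted. The acid phosphatase gene Acp2, named in the same way, fell to 17.7 ± 1.87 FPKM in cKO, against 25.7 ± 0.347 FPKM in WT (n = 3 each).

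Membrane proteins of the lysosome outside the set gave 3 rises and 1 fall among 11 tested. The cholesterol exporter gene Npc1 had 20.3, 17.5 and 19.6 FPKM in cKO and 10.2, 12.8 and 9.93 FPKM in WT (1.74-fold, adjusted p = 0.00637). Ostm1, the beta subunit of the lysosomal chloride exchanger, rose 1.34-fold (adjusted p = 0.0241), and Slc38a9, the arginine sensor of mTORC1 (named after its value was seen), rose 1.42-fold, a call lost on omission of any of the 6 libraries. Mcoln3, a relative of Mcoln1, went the other way, with 2.22, 1.76 and 2.49 FPKM in cKO and 5.82, 5.91 and 3.62 FPKM in WT (42.2% of WT, adjusted p = 0.0153; adjusted p = 0.0613 without HM-5). The mannose 6-phosphate receptor gene Igf2r, which sorts hydrolases to the lysosome and is imprinted, was the 1 of 4 tested sorting genes that rose (1.58-fold, adjusted p = 0.0182). Omitting single libraries ended the call of Ostm1 in 4 of 6 fits and that of Igf2r in 3.

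Calls among pump, autophagy and nutrient-sensing genes outside the set went in both directions. Over all genes tested, 9.62% rose and 8.39% fell. The shares here were 8.33% and 8.33% for pump genes, 8.70% and 4.35% for autophagy genes, and 0% and 10% for nutrient sensing. Nothing about these roles is read from such counts. Of 12 other V-ATPase genes, Atp6v0b, a proteolipid subunit, rose (141, 152 and 150 FPKM in cKO and 117, 110 and 125 FPKM in WT; adjusted p = 0.0172), and Atp6v0e2 fell to 63.2% of WT (adjusted p = 0.0192). Of 23 other autophagy genes, the lipid transfer gene Atg2b rose (2.91 ± 0.404 FPKM in cKO and 1.82 ± 0.166 FPKM in WT, n = 3 each; adjusted p = 0.0369). The other rise counted, that of the related gene Atg2a, had 1.90, 1.25 and 1.66 FPKM in cKO and 0.743, 0.941 and 0.859 FPKM in WT (adjusted p = 0.0395). Atg2a reached the filter of 1 FPKM through the cKO libraries alone, so its call is not independent of the filter. The conjugating enzyme gene Atg10 fell to 54.5% of WT, with 3.35, 4.69 and 4.71 FPKM in cKO and 8.51, 7.02 and 7.88 FPKM in WT (adjusted p = 0.0130). Of 10 genes of mTORC1 and its lysosomal regulators, 0 rose with limma (2 higher and 3 lower at an unadjusted p under 0.05; 1 higher and 1 lower with voom) and the activating GTPase gene Rheb fell to 85.0% of WT (adjusted p = 0.0441). When single libraries were omitted, Atg10 was called throughout, whereas Atp6v0b lost its call in 2 of 6 fits, Atp6v0e2 in 4 and Atg2b and Rheb in 5. Atg2a was tested in 3 of these fits and lost its call in all 3. Quantile normalization also ended the calls of Atg2a, Atg2b and Rheb.

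**Figure D3:**
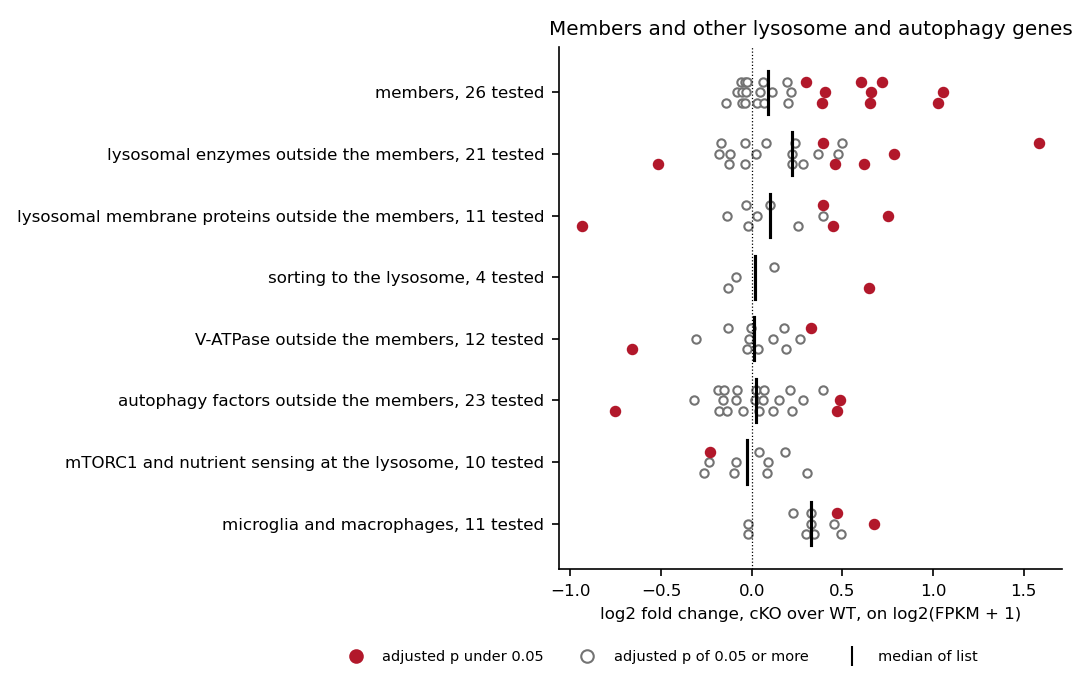
Log2 fold change of cKO over WT on the log2(FPKM + 1) scale for each tested gene of the set (top) and of the wider lists, with microglia and macrophage markers at the bottom; each circle is a gene, filled where the adjusted p is under 0.05, and the vertical bar is the list's median. All 9 filled points of the set lie right of 0, whereas 12 of the filled points of the 6 wider pathway lists lie right and 5 left of it. Those 12 include Atg2a, which reached the filter through the cKO libraries alone.

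Macrophages and microglia are rich in lysosomes, so their markers were set beside these values. Of 21 markers, 12 had a row and 11 were tested. Of these 11, 2 (18.2%) rose and 0 fell, against 9.62% and 8.39% of all genes tested. At an unadjusted p under 0.05, 5 were higher and 0 lower, beside 1623 and 1586 of all 9359 genes. With voom, 2 were higher and 0 lower. The median log2 fold change of the 11 was 0.33. The signalling adaptor gene Tyrobp had 12.5, 16.2 and 15.9 FPKM in cKO and 9.42, 9.70 and 7.63 FPKM in WT (adjusted p = 0.0150; 0.0625 without HM-16), and the complement gene C1qb had 17.0, 17.1 and 18.2 FPKM in cKO and 13.9, 11.9 and 11.2 FPKM in WT (adjusted p = 0.0170; lost without HM-5, HM-16 or HC-10). The summed level of the 12 markers was 90.2, 98.9 and 105 FPKM in HM-5, HM-13 and HM-16, against 88.2, 67.0 and 70.3 FPKM in HC-1, HC-8 and HC-10. None of the 12 was at 0 in a library. With library totals as scaling, 0 of these markers were called. In 6 of the 11 tested markers the 3 cKO values all lay above the 3 WT values, and in 0 all below. Of all genes, 19.5% and 19.6% did so. The macrophage genes Cd68 and Lyz2 overlapped between the groups, with log2 fold changes of -0.02 each. The part of these cells in the rise of the lysosomal genes was not tested.

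Markers of other cell types gave 0 calls in either direction with limma and with voom, and 0 at an unadjusted p under 0.05: 9 tested genes of meninges or mesenchyme, 7 erythroid genes and 4 of the endothelium. Their median log2 fold changes were 0.05 for meninges, 0.29 for erythroid genes (7 of 7 above 0) and 0.28 for endothelium (3 of 4 above 0), beside 0.33 for microglia and macrophages (9 of 11 above 0). Their summed levels ranged from 102 to 131 FPKM in cKO and 73.8 to 134 FPKM in WT for endothelium, and from 285 to 454 FPKM in cKO and 241 to 520.5 FPKM in WT for meninges. For erythroid genes they ranged from 16643 to 24432 FPKM in cKO and 14600.5 to 19649.5 FPKM in WT. HC-1 had the highest WT value in these lists, as it had for 6 of the 9 risen genes. Of 12 tested markers of cortical progenitors and neurons, 2 (16.7%) rose, Emx2 among them, and 0 fell, against 9.62% and 8.39% of all genes. At an unadjusted p under 0.05, 4 were higher and 1 lower, and with voom 2 were higher and 0 lower. Omission of single libraries ended the call of Emx2 in 5 of 6 fits.

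**Figure D4:**
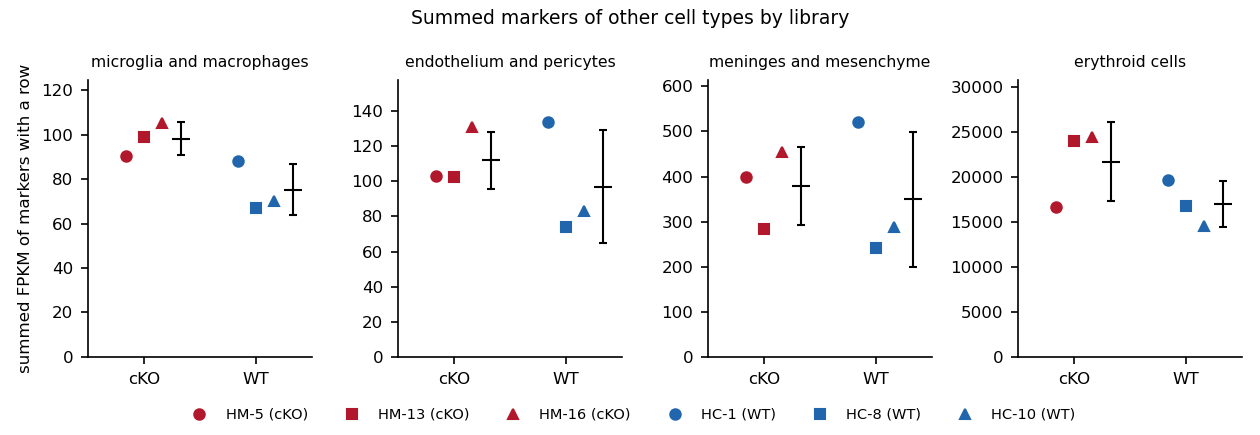
Summed FPKM of the markers of 4 other cell types in each cKO library (left) and each WT library (right); black bars show mean ± SD (n = 3 each) and axes start at 0. The microglia and macrophage sums do not overlap (90.2 to 105 FPKM in cKO, 67.0 to 88.2 FPKM in WT), and those of the other 3 cell types do. The contrast is narrow: HM-5 (90.2 FPKM) and HC-1 (88.2 FPKM) lie close in the microglia sums. In the endothelial sums only HC-1 (134 FPKM) overlaps cKO (102 to 131 FPKM), with HC-8 and HC-10 at 73.8 and 83.2 FPKM.

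In the authors' deposited table, 25 of the 30 members with a row have an FDR. Of these, 9 are higher at an FDR under 0.05 and 0 are lower in the authors' deposited table, where 11.5% and 9.43% of all symbols with an FDR are, and the 9 are the genes that rose here. Grn has the smallest FDR among the members in the authors' deposited table (1.19e-14), followed by Ctsl (4.01e-12).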

How the data were processed

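RNA from embryonic cortex was measured in 3 cKO and 3 WT libraries made with a TruSeq RNA kit, per the labels' protocols. Per the submitters' processing notes, the build was mm10 and the tools were DESeq2 1.22.1 in R 3.4.1, featureCounts 1.6.1, STAR 2.5.4b and bcl2fastq 1.8.4. The deposited table has 14379 rows with FPKM per library, per the file headers. It also holds the mean normalized count (a signal averaged over all libraries), a log2 fold change, an FDR and a p-value from the authors, per the file headers. Columns are named HC and HM, read as control and mutant from the letters; which replicate each is was not given. Whether reads were counted by strand is not stated either, so a gene and an antisense neighbour cannot be told apart.

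Where several rows shared a symbol, that of highest mean normalized count was used. Each deposited FPKM times the row's mean normalized count over its mean FPKM, divided by a step fitted per library, gave whole reads for 100% of values (within 0.001), 9712556 to 11922665 per library. Values of log2(FPKM + 1) for genes with at least 1 FPKM in at least 3 libraries were fitted with limma 3.58.1 (R 4.3.3, two-sided, variance trend with mean level), with Benjamini-Hochberg adjustment over 9359 genes; an adjusted p under 0.05 counted as risen or fallen. The pseudocount of 1 makes fold changes of low genes too small. Ratios of means carry none. In simulated counts for this comparison (9295 genes), 96.9% of 196 genes changed 2-fold were called, and 8.65% of calls were unchanged genes. The simulation gave all genes the same relative spread and changed genes by exactly 2-fold. Its rates therefore do not carry over to smaller changes, such as the 1.24-fold of Mcoln1, or to genes of wider spread.

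The members, gene lists and tests were chosen with earlier results of these data known. Members called were described in full, uncalled ones by role; of the other lists, up to 3 called genes with the smallest p were named; some genes are not reported here. Alternatives were the pseudocount, the filter, scaling, voom on recovered reads, summed rows and leaving out each library. Positions are from GENCODE M21 (GRCm38). Of the symbols, 9540 had a RefSeq mRNA.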

Additional observations from a re-analysis of the deposited data

How the results depend on the processing

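With library totals as scaling, the members called higher were 2 (9 in the reported fit), other lysosome and autophagy genes 1 higher and 3 lower (12 and 5), microglia and macrophage genes 0 higher (2), and all genes 316 higher and 199 lower (900 and 785); the median log2 fold change of members was 0.026 (0.089). That median was 0.14 with library totals without Rn45s, and 0.16 with voom and with the sum of all rows of a symbol. With 1 library left out, members called higher ranged from 5 (without HM-16) to 9 (without HM-13), other lysosome and autophagy genes from 4 to 10 higher and 2 to 7 lower, microglia and macrophage genes from 0 (without HM-16) to 4 (without HC-1) higher, all genes from 284 to 961 higher and 220 to 812 lower, and the members' median from 0.070 to 0.15. The cause of these shifts was not tested. In the other settings run, 9 to 11 members were called higher, and in every setting 0 were called lower. Of the 9 risen members, 5 kept their calls in all 6 fits with 1 library left out (Ctsb, Ctsl, Neu1, Manba and Grn), and 2 in every setting run (Manba and Grn). No gene that was named here and called in the reported fit changed sign. The signs of other called genes were not compared. Of the 17 uncalled members, 12 had a log2 fold change of either sign depending on the setting, without passing. No paired analysis was possible because the columns carry no replicate number of the labels, so the replicate block was not run. Depth limits most the 4 members below the filter and Gabarapl1, which had 12 to 23 reads per library. Other uncalled members with few reads were Psap (22 to 40), Ppt1 (28 to 43), Tpp1 (56 to 86), Becn1 (56 to 105) and Atp6v0a1 (68 to 99). Of the called members, Manba (45 to 180) and Wipi1 (60 to 132) had the fewest.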
